A study of Mus musculus with 6 samples.

Results

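The genes described here are the matrix metalloproteinases (MMPs), the ADAMTS proteases with their ADAMTS-like relatives, and the tissue inhibitors of metalloproteinases (TIMPs), measured by RNA sequencing in the mesenchyme of the mouse incisor. Members were taken by symbol alone, as every listed gene named Mmp, Timp 1 to 4, Adamts or Adamtsl with a number. This gave 45 of 23718 genes, made up of 17 Mmp, 4 Timp, 19 Adamts and 5 Adamtsl genes. The symbol rule used no expression values. The study set the stem cells of the incisor mesenchyme (MSCs) against the dividing cells that arise from them, the transit amplifying cells (TACs), to find which genes tell the populations apart. There were 3 MSC libraries from Gli1-CreER;tdT mice and 3 TAC libraries from Axin2-CreER;tdT mice. All mice were 1 month old and, by the methods, had received tamoxifen 1 day earlier, so both groups carried a tamoxifen-activated Cre, the tdT reporter and the drug. The labels give the strain as C57BL/6, while the methods speak of a mixed background. Reporter-positive cells near the cervical loop, the growing end of the tooth, were cut from sections with a laser. Each driver marks every cell type that uses its gene, and tissue cut from a section can bring neighbouring cells along. The labels do not tie a library to an animal, so p-values below measure only the spread between these libraries.

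MMPs are zinc proteases that cleave collagens and other matrix proteins. Gelatinases (Mmp2 and Mmp9) act on denatured collagen, collagenases on fibrillar collagen, and membrane-type MMPs sit on the cell surface. ADAMTS proteases are secreted relatives with thrombospondin repeats. Some cleave the proteoglycans aggrecan and versican, and others remove the amino-terminal propeptides of procollagens. ADAMTS-like proteins have the repeats without the protease domain and bind microfibrils. TIMPs block these enzymes, and TIMP3 stands out among them by binding to the matrix and by inhibiting ADAMTS proteases as well. In the tooth, MMP20 is known as the enamel protease, secreted mainly by ameloblasts.

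Values are in the deposited unit, a read number scaled per library and not divided by gene length, so each gene can be compared across libraries but not with other genes. Estimated reads numbered between 20203159 and 108156380 per library. Replicate 3 stood apart from replicates 1 and 2 in both groups. Genes listed at 0, here under 0.5 estimated reads, made up 6.89% to 8.36% of the table in replicates 1 and 2, 43.1% in MSC replicate 3 and 28.3% in TAC replicate 3. The share of mitochondrial ribosomal RNA was 8.28% to 9.07% of reads in replicates 1 and 2, 0.236% in MSC replicate 3 and 0.112% in TAC replicate 3. Of the 45 members, 18 were listed at 0 in MSC replicate 3, 7 in TAC replicate 3 and at most 1 in each other library. A listed 0 allows up to 3 reads, worth a value of 0.0266 in MSC replicate 3 and 0.0152 in TAC replicate 3, for counting error only. The driver genes, by which the cells were chosen, overlapped between the groups. Gli1 had values of 256, 245 and 422 across MSC1 to MSC3 and 153, 141 and 396 across TAC1 to TAC3, with TAC replicate 3 above MSC replicates 1 and 2. Axin2 had values of 58.3, 47.98 and 12.01 across MSC1 to MSC3 and 56.75, 63.9 and 34.1 across TAC1 to TAC3. The limma adjusted p was 0.718 for Gli1 and 0.758 for Axin2. Replicates 1 and 2 of a group lay close together. Their mean chi-square per gene was 9.51 to 10.2 over 4 classes of read number in MSC and 7.65 to 8.09 in TAC, above counting noise, against 67.1 to 1030 between MSC replicates 1 and 3. The methods give 3 mice per group for the laser cutting, but neither they nor the labels say which library came from which mouse, so whether replicates 1 and 2 are separate animals or repeat libraries of 1 sample is not stated. In the second case the n, SD and p of each comparison would count that sample more than once. These replicates were kept as separate samples, and results with replicates 1 and 2 averaged as 1 sample are given where a call changed.

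Timp3 was the member that differed between the groups after adjustment, with a value 8.85-fold higher in MSC. Timp2, Mmp9, Adamts5, Adamts14, Adamts15 and Adamtsl4 also lay higher in every MSC library than in any TAC library, and Adamts18, Adamts19 and Mmp2 lay higher in every TAC library. Of the members, 38 reached the mean of 1 required for testing. In limma, 1 of the 38 had an adjusted p under 0.05, against 0.422% of all 15391 genes tested. It was higher in MSC, where the share over all genes was 0.383%, and 0 members were higher in TAC at this threshold, where that share was 0.039% and 2 had an unadjusted p under 0.05. At an unadjusted p under 0.05 there were 9 members (23.7%), against 11.9% of all genes. Of these 7 were higher in MSC, against 6.43% of all genes, and 2 in TAC, against 5.42%. The groups did not overlap in 13 members (34.2%), against 24.5% of all genes. Here 10 members were higher in MSC (12.2% of all genes) and 3 in TAC (12.3% of all genes). The median log2 fold change, which is the TAC minus the MSC mean of log2(value + 1) and is called the log2 difference for a gene, was -0.11 over the tested members and 0.026 over all genes tested. The median of the members was positive with a minimum mean of 5 (0.17) and with replicates 1 and 2 averaged (0.033). The 9 members kept their sign in each alternative that held them and in both sets of libraries. Adamts5 and Adamts15 were in 16 alternatives, since a minimum mean of 5 left them out, and the others in 17. With library set as a batch term, 9 members had an adjusted p under 0.05 (11.8% of all genes). These were Timp3, Adamts18 and Adamts19, and also Mmp2 (0.0123), Timp2 (0.01303), Mmp9 (0.0256), Adamts15 (0.02898), Adamts5 (0.0329) and Adamtsl4 (0.0337).

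These counts depended on how replicate 3 was treated. With the replicate number as a block, 1 member, Adamts19, passed the adjusted threshold (1.49% of all genes) and 14 had an unadjusted p under 0.05 (20.4% of all genes). With replicates 1 and 2 averaged, 0 members passed in limma (0.065% of all genes) and 4 had an unadjusted p under 0.05 (3.96% of all genes). These 4 were Timp3, Adamts18, Mmp9 and Adamts19. Without MSC replicate 3, 2 members had an adjusted p under 0.05 (1.9% of all genes) and 18 an unadjusted p under 0.05 (20.2% of all genes). When any other library was left out none passed in limma (at most 0.234% of all genes), and 6 to 9 had an unadjusted p under 0.05 (6.68% to 12.5% of all genes).

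**Figure D1:**
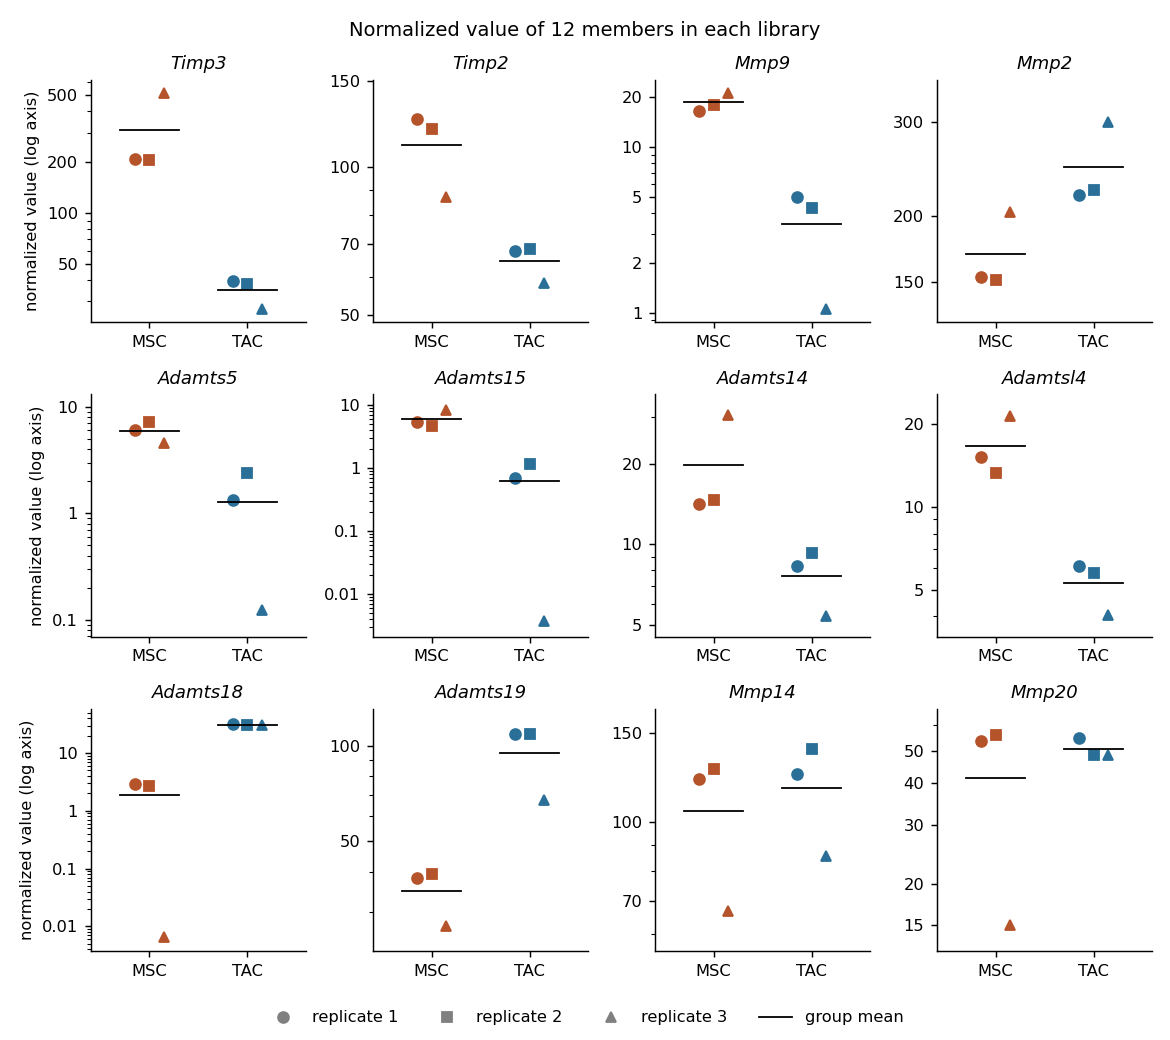
Normalized value (log axis) of 12 members in each library, with MSC at the left and TAC at the right of each panel, a marker shape for each replicate number and a line at the group mean (3 libraries per group). Timp3 sits between 207 and 513 in MSC and between 27.2 and 39.6 in TAC, while Mmp14 and Mmp20 overlap between the groups. Timp3, Timp2, Mmp9, Adamts5, Adamts15, Adamts14 and Adamtsl4 are higher in every MSC library, and Mmp2, Adamts18 and Adamts19 in every TAC library.

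Of the 4 TIMP genes, 3 were tested, 1 passed the adjusted threshold and 2 had an unadjusted p under 0.05, both higher in MSC (6.43% of all genes). Timp3 (chromosome 10, 86300372 to 86349506, plus strand, mm10) was 209, 207 and 513 in MSC replicates 1, 2 and 3. In TAC replicates 1, 2 and 3 it was 39.6, 38.3 and 27.2. The groups were well apart, and MSC replicate 3 lay above the other MSC libraries. Its MSC mean was 309.8 ± 176 (SD, n = 3) and the TAC mean 35.0 ± 6.84 (SD, n = 3). The log2 difference was -2.99 (SE 0.42, limma adjusted p 0.0413). Within the library sets it was -2.39 for replicates 1 and 2 and -4.19 for replicate 3. With the replicate block the adjusted p was 0.0556, and over all alternatives it ran from 2.16e-08, with replicates 1 and 2 only, to 0.222. It was above 0.05 also with a pseudocount of 0.25, median-ratio scaling, no variance trend or replicates 1 and 2 averaged. It stayed under 0.05 without MSC replicate 3 (0.0303) and did not without any other library (0.134 to 0.222). In bulk samples, fewer cells of a type and less RNA per cell cannot be told apart.

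Timp2, the inhibitor that also takes part in the activation of pro-MMP2 by MMP14, lies on chromosome 11 (118301069 to 118355740, minus strand). Its value measured 126, 119.8 and 87.3 across MSC1 to MSC3 and 67.7, 68.1 and 58.2 across TAC1 to TAC3. Each MSC library was above each TAC library, with replicate 3 the lowest of its group in both. The MSC mean was 110.9 ± 20.7 (SD, n = 3) and the TAC mean 64.7 ± 5.64 (SD, n = 3), a difference of -0.75 on the log2 scale (SE 0.27, limma adjusted p 0.329). The block lowered the adjusted p to 0.0800. Timp1 (chromosome X, 20870166 to 20874735, plus strand), the broadly acting inducible inhibitor, measured 1.31, 1.22 and a listed 0 across MSC1 to MSC3 and 1.07, 0.480 and 3.67 across TAC1 to TAC3. The groups overlapped, with a log2 difference of 0.49 (SE 0.65, limma adjusted p 0.836). With replicates 1 and 2 only it was -0.37. Timp4 did not reach the mean for testing and measured 0.187, 0.637 and a listed 0 across MSC1 to MSC3 and 0.138, 0.623 and a listed 0 across TAC1 to TAC3.

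Timp1, Timp3 and Timp4 lie inside Syn1, Syn3 and Syn2, synapsin genes on the opposite strand. The use of strand in counting was not stated, so it is not known from which strand a read in a stretch covered by both genes of a pair came. Syn2, the partner of Timp4, measured 1.01, 1.68 and a listed 0 across MSC1 to MSC3 and 0.256, a listed 0 and 0.235 across TAC1 to TAC3. Syn3 was listed at 7.61, 5.45 and 3.83 across MSC1 to MSC3 and at 1.09, 1.18 and 9.81 across TAC1 to TAC3, below Timp3 in every library. Syn1 measured 2.29, 2.14 and a listed 0 across MSC1 to MSC3 and 0.832, 1.10 and 0.00758 across TAC1 to TAC3, which is the order of size of Timp1 in replicates 1 and 2.

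The start regions of Timp3 and Timp2, the inhibitors higher in MSC, and of Adamts18, with the largest fitted difference toward TAC, are shown beside that of Mmp20, whose groups overlapped and whose start region holds other motifs. Each sequence runs 5′ to 3′ on the gene's strand from 250 bases before to 50 bases after a RefSeq start (build GRCm38.p6). Capitals mark the GC box GGGCGG, on either strand, in the first 3, and the AP-1 word TGANTCA and the TATA word TATAAA in Mmp20. No capitalised words overlap. The RefSeq starts of Timp3 and Timp2 lie inside the deposited gene, and that of Adamts18 lies before its deposited start. The Timp3 window is chr10:86300162-86300461 (plus strand), that of Timp2 chr11:118355362-118355661 (minus strand), that of Adamts18 chr8:113848790-113849089 (minus strand) and that of Mmp20 chr9:7627981-7628280 (plus strand).
Timp3: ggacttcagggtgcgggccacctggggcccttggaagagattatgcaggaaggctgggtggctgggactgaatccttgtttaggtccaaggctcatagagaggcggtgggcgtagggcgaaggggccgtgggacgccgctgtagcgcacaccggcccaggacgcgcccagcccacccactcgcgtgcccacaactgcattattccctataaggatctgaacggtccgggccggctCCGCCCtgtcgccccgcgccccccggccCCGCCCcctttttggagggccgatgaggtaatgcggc
Timp2: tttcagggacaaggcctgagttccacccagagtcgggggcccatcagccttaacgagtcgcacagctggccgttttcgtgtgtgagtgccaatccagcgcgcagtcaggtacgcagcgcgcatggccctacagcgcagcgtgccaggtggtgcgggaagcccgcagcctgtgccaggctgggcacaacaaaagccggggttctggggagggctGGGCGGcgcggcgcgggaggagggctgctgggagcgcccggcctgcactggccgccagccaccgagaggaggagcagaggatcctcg
Adamts18: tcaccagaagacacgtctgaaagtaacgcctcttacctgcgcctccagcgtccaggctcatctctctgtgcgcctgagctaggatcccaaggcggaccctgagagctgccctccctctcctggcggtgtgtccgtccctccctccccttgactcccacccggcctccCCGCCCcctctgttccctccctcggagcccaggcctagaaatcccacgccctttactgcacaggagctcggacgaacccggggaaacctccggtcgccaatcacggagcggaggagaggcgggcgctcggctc
Mmp20: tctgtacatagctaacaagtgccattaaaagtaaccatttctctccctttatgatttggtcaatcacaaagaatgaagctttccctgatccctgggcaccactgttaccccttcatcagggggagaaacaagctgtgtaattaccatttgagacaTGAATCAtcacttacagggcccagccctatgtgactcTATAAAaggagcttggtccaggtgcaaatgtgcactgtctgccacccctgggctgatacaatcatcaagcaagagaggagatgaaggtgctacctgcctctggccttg

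RefSeq windows were found for 30 of the 45 members, 32 windows in all. The GC box stood in 22 of the 32 windows, against 35.7% of all 32851 windows. The AP-1 word, searched on both strands, was in windows of 3 members, Mmp12, Mmp13 and Mmp20 (7.81% of all windows). The TATA word, searched on the gene's strand, was in those of 6 members (8.32% of all windows). Neither the TCF/LEF word CTTTGAT (3.73% of all windows) nor the GLI word TGGGTGGTC (0.253% of all windows) was found in a member's window. A match is a match of letters and no more.

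The gelatinases lay on opposite sides. Mmp9 (chromosome 2, 164940780 to 164955850, plus strand) measured 16.7, 18.1 and 21.3 across MSC1 to MSC3 and 4.99, 4.32 and 1.05 across TAC1 to TAC3. Every MSC library was above every TAC library, and TAC replicate 3 was the lowest. The log2 difference was -2.28 (SE 0.53, limma unadjusted p 0.00332, adjusted p 0.156), from a mean of 18.7 ± 2.39 (SD, n = 3) in MSC to 3.45 ± 2.11 (SD, n = 3) in TAC. Mmp2 (chromosome 8, 92827291 to 92853420, plus strand) measured 154, 152 and 203 across MSC1 to MSC3 and 219, 223 and 299.7 across TAC1 to TAC3. All TAC libraries were above all MSC libraries, and replicate 3 was the highest of its group in both. Its MSC mean was 169.5 ± 29.2 (SD, n = 3) and the TAC mean 247 ± 45.5 (SD, n = 3), and its log2 difference was 0.54 (SE 0.30, limma unadjusted p 0.113, adjusted p 0.542). The difference was 0.53 in replicates 1 and 2 and 0.56 in replicate 3. With the block the unadjusted p of Mmp2 was 0.00422 and the adjusted p 0.0847, and with the batch term the adjusted p was 0.0123.

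Mmp14, the membrane-type protease that activates pro-MMP2, had a difference smaller than its standard error. It measured 122, 127 and 66.7 across MSC1 to MSC3 and 124, 139 and 85.9 across TAC1 to TAC3, with a log2 difference of 0.17 (SE 0.36, limma adjusted p 0.912) that became -0.12 without MSC replicate 3. Replicate 3 was the lowest of its group in both. The ratio of Timp3 to Mmp2 within a library, which does not depend on the scaling, measured 1.36, 1.36 and 2.53 across MSC1 to MSC3 and 0.181, 0.171 and 0.0907 across TAC1 to TAC3. That of Timp2 to Mmp2 measured 0.817, 0.790 and 0.429 across MSC1 to MSC3 and 0.310, 0.305 and 0.194 across TAC1 to TAC3. The ratio of Timp2 to Mmp14 measured 1.03, 0.940 and 1.31 across MSC1 to MSC3 and 0.545, 0.489 and 0.677 across TAC1 to TAC3. The ratio of Mmp14 to Mmp2 measured 0.792, 0.840 and 0.328 across MSC1 to MSC3 and 0.569, 0.624 and 0.287 across TAC1 to TAC3, and its groups overlapped. The groups did not overlap in the 3 ratios with an inhibitor, which for the ratios to Mmp2 follows from the values of the genes themselves, since these lay apart in opposite directions. Of 3 further ratios, Timp3 to Timp2 and Adamts19 to Adamts20 did not overlap and Adamts3 to Adamts2 did. Ratios of values not divided by length show unequal change and not which transcript was more abundant.

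Of the other MMPs none had an unadjusted p under 0.05 in limma, and with the block Mmp11 alone did, at 0.0497 against 0.289. Of 5 tested membrane-type MMPs, 2 had lower and 3 had higher fitted values in TAC. Mmp17 alone had groups that did not overlap, with 4.09 to 7.67 in MSC and 1.73 to 3.57 in TAC (12.2% of all genes were apart with MSC higher). Of 6 tested other secreted MMPs, 4 were lower and 2 higher. The stromelysin-like Mmp11 was 8.98 to 27.8 in MSC and 3.79 to 20.9 in TAC, higher in replicate 3 than in replicates 1 and 2 in both groups, and it overlaps Chchd10 on the opposite strand. Mmp15 was 19.5, 19.4 and 1.12 in the MSC replicates against 10.3 to 11.6 in TAC. The macrophage elastase Mmp12 reached its mean through MSC replicate 3, with a value of 6.60 from 991 estimated reads, and had 3 or fewer reads in each other library. It is among the members whose groups did not overlap, but MSC replicate 2 and TAC replicates 1 and 2 had no read, and a listed 0 has a different value in each library. The summed macrophage markers were also highest in MSC replicate 3, at 194, and their part in the Mmp12 value was not tested. The values of Mmp11, Mmp12, Mmp13, Mmp15, Mmp17, Mmp20, Mmp23, Adamts17, Adamtsl1 and Adamtsl3 were singled out after they were seen.

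Mmp13, Mmp12, Mmp8 and Mmp20 lie in a cluster on chromosome 9 between 7272514 and 7674979. Mmp20, whose start region is printed with those of the inhibitors, measured 53.5, 55.8 and 15.0 across MSC1 to MSC3 and 54.6, 48.8 and 48.6 across TAC1 to TAC3. The groups overlapped, MSC replicate 3 was the lowest, and the log2 difference was 0.49 (SE 0.50, limma adjusted p 0.767). Replicates 1 and 2 gave -0.079 and replicate 3 gave 1.63. The summed value of a list of dental epithelium genes was 3662, 3600 and 321 across MSC1 to MSC3 and 3266, 3339 and 2541 across TAC1 to TAC3. This sum was also lowest in MSC replicate 3, and Amelx, at 2503, 2492 and 80.6 across MSC1 to MSC3, made up most of it in replicates 1 and 2. Within MSC, Amelx, Ambn, Enam, Epcam and Cdh1 were lowest in replicate 3. Krt5 (7.75, 10.2 and 15.0 across MSC1 to MSC3), Krt14, Amtn and Odam were highest there. The part of dental epithelial cells in the Mmp20 value was not tested. The collagenase Mmp13 measured 7.99, 10.6 and a listed 0 across MSC1 to MSC3 and 12.4, 7.84 and 1.28 across TAC1 to TAC3, and the neutrophil collagenase Mmp8 was at most 0.724 and was not tested.

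**Figure D2:**
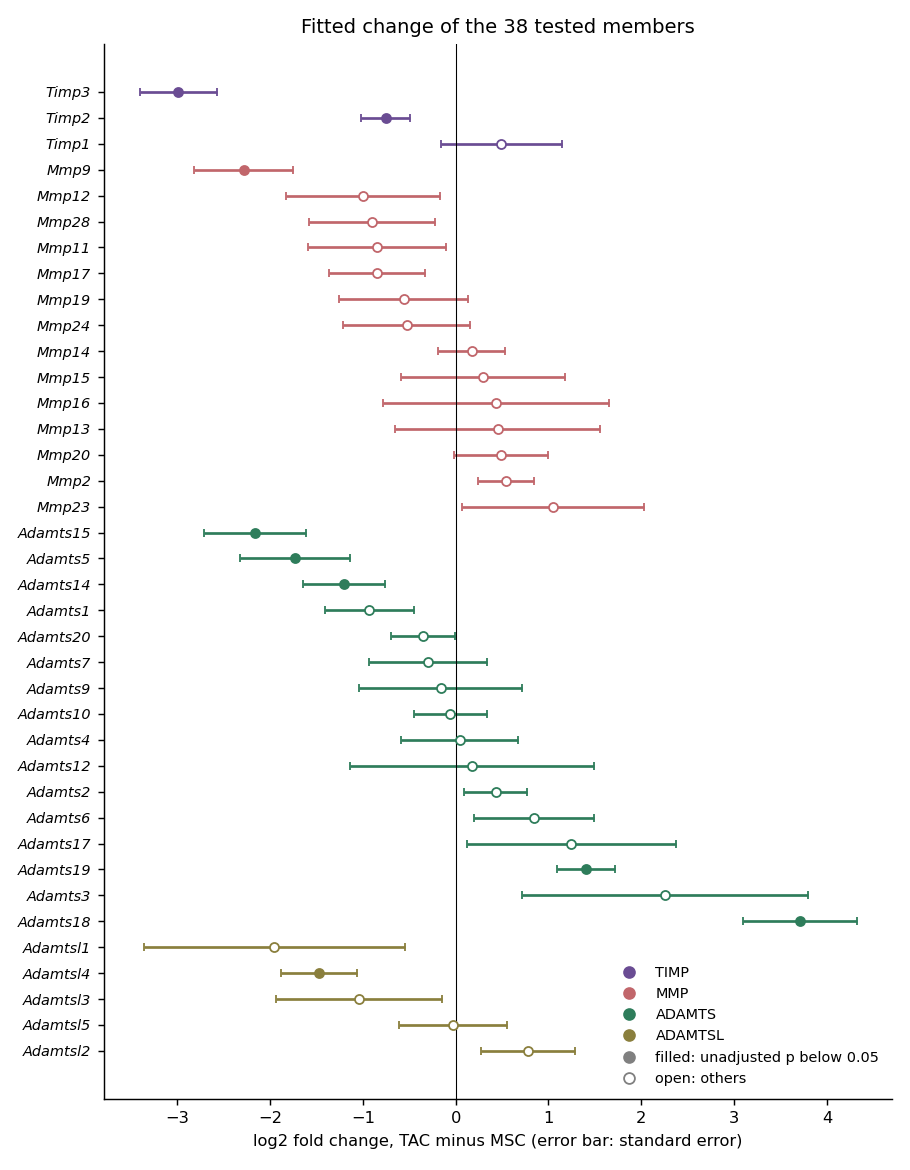
Fitted log2 fold change, TAC minus MSC, of the 38 tested members with the standard error as a bar, coloured by family. Filled points are the 9 members with an unadjusted p under 0.05. Timp3 is at -2.99, Mmp9 at -2.28 and Adamts18 at 3.71, and many of the open points have bars that reach 0.

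Among the proteoglycan-cleaving ADAMTS genes 6 of 7 were tested, 2 had an unadjusted p under 0.05 and 3 had groups that did not overlap, all higher in MSC (6.43% and 12.2% of all genes). Their median log2 fold change was -0.64. Adamts5, an aggrecan-cleaving enzyme of cartilage (chromosome 16, 85858170 to 85901125, minus strand), measured 6.02, 7.27 and 4.60 across MSC1 to MSC3 and 1.34, 2.37 and 0.125 across TAC1 to TAC3. The groups did not overlap, and the log2 difference was -1.73 (SE 0.59, limma adjusted p 0.311). Adamts15, which cleaves versican (chromosome 9, 30899155 to 30922452, minus strand), measured 5.36, 4.58 and 8.13 across MSC1 to MSC3 and 0.679, 1.15 and a listed 0 across TAC1 to TAC3. Its log2 difference was -2.16 (SE 0.55, limma unadjusted p 0.00527, adjusted p 0.180). Every MSC library was above every TAC library. Adamts1, another versican protease and a neighbour of Adamts5 on chromosome 16, was 11.4 to 19.7 in MSC and 4.16 to 10.9 in TAC, at -0.93 (SE 0.48, limma unadjusted p 0.0898), and 0.0268 with the block. Adamts8, which lies beside Adamts15 on chromosome 9, did not reach the mean for testing. It was 1.15 to 2.20 in MSC and 0.241 to 0.447 in TAC, so its groups did not overlap either.

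Adamts20, known for its part in the migration of pigment cell precursors, had high values in both groups. It measured 210.2, 213 and 118 across MSC1 to MSC3 and 150.4, 154 and 108.9 across TAC1 to TAC3, with a log2 difference of -0.35 (SE 0.34, limma adjusted p 0.748). The groups overlapped through MSC replicate 3, and the unadjusted p of 0.336 became 0.04997 with the block. Adamts9 was 8.05 to 85.6 in MSC and 19.5 to 49.1 in TAC, and Adamts4 was 2.28 to 9.13 in MSC and 3.50 to 7.98 in TAC. For Adamts9 replicates 1 and 2 gave -0.83 and replicate 3 gave 1.18.

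Of the procollagen N-proteinases Adamts2, Adamts3 and Adamts14, Adamts14 alone had groups that did not overlap, with MSC higher (12.2% of all genes). Adamts14 (chromosome 10, 61197112 to 61273438, minus strand) measured 14.2, 14.7 and 30.4 across MSC1 to MSC3 and 8.28, 9.25 and 5.42 across TAC1 to TAC3. Each MSC library was above each TAC library, and the log2 difference was -1.20 (SE 0.44, limma adjusted p 0.346). Adamts3 (chromosome 5, 89677087 to 89883334, minus strand) measured 55.8, 41.96 and a listed 0 across MSC1 to MSC3 and 117, 111 and 19.5 across TAC1 to TAC3. The groups overlapped through TAC replicate 3, and the fitted log2 difference of 2.26 (SE 1.54, limma adjusted p 0.631) was 0.39 without MSC replicate 3. Replicates 1 and 2 gave 1.22 (limma adjusted p 4.43e-05 with these only) and replicate 3 gave 4.35, with no read in MSC replicate 3. In the fit with replicates 1 and 2 only, 44.2% of all genes had an adjusted p under 0.05, and these libraries may be repeats of 1 sample. With the block the unadjusted p of Adamts3 was 0.0273. Adamts2 was 25.4 to 48.7 in MSC and 41.1 to 59.7 in TAC (log2 fold change 0.43, limma adjusted p 0.685).

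Adamts18 and Adamts19 were the members at an unadjusted p under 0.05 that were higher in TAC. Adamts18, a secreted protease known from eye and lung development (chromosome 8, 113697126 to 113848738, minus strand), measured 2.96, 2.67 and a listed 0 across MSC1 to MSC3 and 32.3, 30.4 and 30.2 across TAC1 to TAC3. The TAC libraries lay within a narrow range far above the MSC libraries. Its MSC mean was 1.88 ± 1.63 (SD, n = 3) and the TAC mean 31.0 ± 1.15 (SD, n = 3). The log2 difference was 3.71 (SE 0.61, limma unadjusted p 0.000434, adjusted p 0.0759). Replicates 1 and 2 gave 3.09 and replicate 3 gave 4.95. Adamts18 passed the adjusted threshold without MSC replicate 3 (0.0299), with a pseudocount of 5 (0.0269), with quantile normalization (0.0185) and with library set as a batch term (0.00834). It also passed with replicates 1 and 2 only, where 44.2% of all genes did. It had 0.0556 with the block. Over all alternatives its adjusted p ran from 1.62e-06 to 0.516. Its nearest relative, Adamts16, was at most 0.823 in any library and was not tested.

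Adamts19, linked to heart valve development (chromosome 18, 58836764 to 59053678, plus strand), measured 38.2, 39.5 and 26.98 across MSC1 to MSC3 and 108.9, 109 and 67.4 across TAC1 to TAC3. All TAC libraries were above all MSC libraries, and replicate 3 was the lowest of its group in both. The MSC mean was 34.9 ± 6.87 (SD, n = 3) and the TAC mean 95.0 ± 23.9 (SD, n = 3). Its log2 difference was 1.41 (SE 0.31, limma adjusted p 0.142), and with the replicate block Adamts19 passed at an adjusted p of 0.0442. The differences were 1.46 in replicates 1 and 2 and 1.29 in replicate 3. Adamts17, of the same clade, measured 20.5, 18.0 and a listed 0 across MSC1 to MSC3 and 17.6, 17.5 and 14.9 across TAC1 to TAC3, with a log2 difference of -0.12 for replicates 1 and 2 and 3.98 for replicate 3.

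Of the remaining ADAMTS genes none had an unadjusted p under 0.05 in limma. Adamts10, which binds fibrillin microfibrils, measured 143, 135 and 199.8 across MSC1 to MSC3 and 115, 116 and 253 across TAC1 to TAC3. The groups overlapped, with TAC replicate 3 above and TAC replicates 1 and 2 below all MSC libraries, and a log2 difference of -0.06 (SE 0.39, limma adjusted p 0.978) that became positive in some alternatives. Its partner Adamts6 was 2.20 to 8.66 in MSC and 6.28 to 21.3 in TAC. Adamts7 and Adamts12, which cleave cartilage oligomeric matrix protein, were 4.59 to 17.0 and up to 9.78 in MSC and 3.83 to 11.3 and up to 12.2 in TAC, and Adamts12 had no read in either replicate 3. Adamts13, the von Willebrand factor protease made mainly in liver, was at most 0.773 and was not tested.

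All 5 ADAMTS-like genes were tested and 1, Adamtsl4, had an unadjusted p under 0.05, higher in MSC (6.43% of all genes). Adamtsl4, a microfibril-binding protein needed for lens suspension (chromosome 3, 95676201 to 95687917, minus strand), measured 15.2, 13.3 and 21.4 across MSC1 to MSC3 and 6.11, 5.75 and 4.05 across TAC1 to TAC3. Every MSC library was above every TAC library. Its log2 difference was -1.47 (SE 0.40, limma unadjusted p 0.00773, adjusted p 0.201). Replicates 1 and 2 gave -1.13 and replicate 3 gave -2.15. Adamtsl1 measured 68.6, 71.0 and 0.899 across MSC1 to MSC3 and 7.42, 7.05 and 1.41 across TAC1 to TAC3. Replicates 1 and 2 differed by -3.10 and replicate 3 by 0.34, and over all libraries the difference was -1.95 (SE 1.41, limma adjusted p 0.656). Adamtsl1 overlaps Sh3gl2 on the same strand. Adamtsl3 measured 5.33, 6.95 and a listed 0 across MSC1 to MSC3 and 1.51, 1.29 and a listed 0 across TAC1 to TAC3. Adamtsl2 was 6.03 to 15.2 in MSC and 14.5 to 34.1 in TAC, and Adamtsl5 was 3.01 to 7.502 and 2.95 to 8.62.

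To compare levels between genes, values were divided by the summed exon length in kb. On this scale Mmp2 had the highest group mean in both groups, at 50.3 ± 8.65 (SD, n = 3) per kb for MSC and 73.3 ± 13.5 (SD, n = 3) per kb for TAC. It ranked first in every library except MSC replicate 3. There Timp3 was first, at 63.0 against 60.3 for Mmp2. Timp3 ranked second by the MSC mean (38.04 ± 21.7, SD, n = 3) and was at rank 10 in TAC (4.30 ± 0.839, SD, n = 3). Timp2 came next in MSC, at 28.5 ± 5.31 (SD, n = 3). The order of these inhibitors rests on MSC replicate 3, since in MSC replicates 1 and 2 Timp2, at 32.3 and 30.7, was above Timp3, at 25.7 and 25.4. For Timp2 the level per kb in TAC was 16.6 ± 1.45 (SD, n = 3). Adamts20 (20.04 in MSC and 15.3 in TAC), Adamts10 (19.3 and 19.6) and Mmp14 (17.7 and 19.5) overlapped with each other in each group, as Timp3 did with Mmp2 and with Timp2 in MSC. Mmp20 was at 12.6 in MSC and 15.4 in TAC. Exon lengths are the union over annotated transcripts, so a gene with a long rare exon has a level per kb that is too low.

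**Figure D3:**
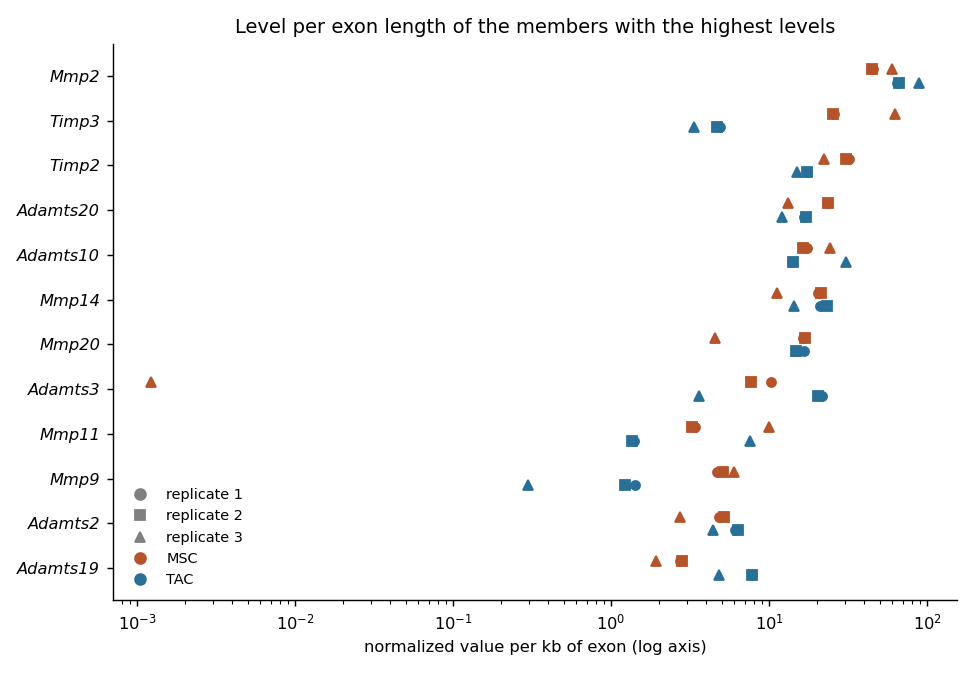
Normalized value per kb of exon (log axis) in each library for the members whose group mean is at least 4 per kb in either group, with colour for the group and shape for the replicate number. Mmp2 is at the right in both groups, Timp3 runs from 25.4 to 63.0 in MSC and from 3.34 to 4.87 in TAC, and Adamts3 is far to the left in MSC replicate 3.

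The library sets gave different medians for the members. Over the 38 tested members the median difference was -0.42 in replicates 1 and 2 and 0.34 in replicate 3. Over all genes tested the medians were -0.046 and 0.042. Of the 36 members with a read in either replicate 3, the sign was the same in both sets for 22 and opposite for 14, against 8706 and 5590 of the 14296 such genes among all tested. Adamts12 and Adamtsl3 had no read in either replicate 3. In MSC replicate 3, 12 of the 38 were listed at 0, and in TAC replicate 3, 3 were. Adamts18, at 4.95, Adamts3, at 4.35, Mmp23, at 4.25, and Adamts17, at 3.98, had large positive differences in replicate 3 and no read in MSC replicate 3, so the size of these depends on the pseudocount. With 1 library per group in replicate 3, no test can be made there.

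**Figure D4:**
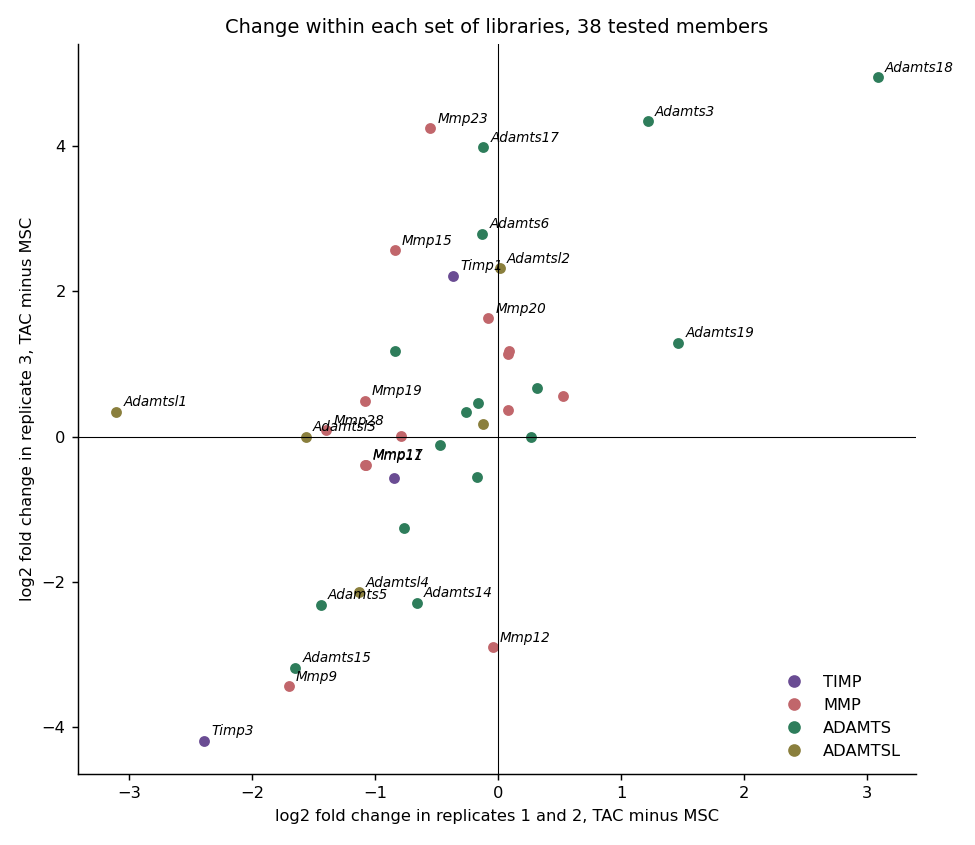
Log2 fold change, TAC minus MSC, in replicates 1 and 2 (horizontal) and in replicate 3 (vertical) for the 38 tested members, coloured by family, with lines at 0 and names at the members farthest out. Timp3, at -2.39 and -4.19, and Adamts18, at 3.09 and 4.95, keep their side (Adamts18 had no read in MSC replicate 3), while Adamtsl1, at -3.10 and 0.34, and 13 other members with a read in either replicate 3 cross it.

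Other genes of matrix breakdown were followed in 6 lists, written from general knowledge. Of 52 listed partners 45 were tested. None had an adjusted p under 0.05 in limma, and 10 (22.2%) had an unadjusted p under 0.05, 6 higher in MSC and 4 higher in TAC, against the 11.9% of all genes given above. Their median log2 difference was -0.25. The block gave 2 partners at an adjusted p under 0.05, Adam15 and Fbn2 (1.49% of all genes), and 22 of 45 at an unadjusted one (20.4% of all genes). Without MSC replicate 3 there were 4 and 15 (1.9% and 20.2% of all genes). Averaging replicates 1 and 2 left 0 and 8 (0.065% and 3.96% of all genes). Of the cysteine and serine proteases 3 of 11 had an unadjusted p under 0.05. These were Fap, a serine protease of activated fibroblasts, at -2.12, Prss23, a trypsin-like protease, at -1.86, and Prss35 at 0.79. Fap measured 15.0, 13.4 and 19.7 across MSC1 to MSC3 and 2.80, 3.07 and 2.74 across TAC1 to TAC3, so all MSC libraries were higher. Prss23 measured 36.5, 33.7 and 59.5 across MSC1 to MSC3 and 12.6, 11.7 and 8.57 across TAC1 to TAC3, and Prss35 measured 13.8, 19.99 and 14.1 across MSC1 to MSC3 and 34.1, 29.2 and 21.8 across TAC1 to TAC3. Neither overlapped between the groups. Serpine2, an inhibitor of plasmin, urokinase and thrombin, was the plasminogen system gene at this threshold (1 of 4 tested), at -1.85. It measured 22.1, 21.9 and 109.6 across MSC1 to MSC3 and 8.96, 11.99 and 8.70 across TAC1 to TAC3, with MSC replicate 3 far above the others. Adam12 at 2.92 and Adam15 at -1.67 were those of the sheddases (2 of 10). Adam12 measured 27.4, 23.2 and a listed 0 across MSC1 to MSC3 and 78.8, 72.2 and 50.2 across TAC1 to TAC3, so all TAC libraries were higher. Adam15 measured 35.4, 39.3 and 83.0 across MSC1 to MSC3 and 11.01, 13.1 and 21.8 across TAC1 to TAC3, and passed with the block at an adjusted p of 0.0459. Fbn2, a fibrillin of the microfibrils and a listed ADAMTS substrate, measured 178, 189 and 36.0 across MSC1 to MSC3 and 478, 471 and 167 across TAC1 to TAC3. Its groups overlapped, and its difference of 1.64 had an adjusted p of 0.444, or 0.0494 with the block.

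Pcolce, which enhances the removal of the carboxyl propeptide of procollagen, measured 57.6, 61.7 and 39.6 across MSC1 to MSC3 and 108, 109 and 172 across TAC1 to TAC3, a log2 difference of 1.27 (SE 0.32, limma adjusted p 0.179). It was the gene at this threshold among 4 tested of propeptide processing. Thbs2, a matricellular protein that helps clear MMP2, was at -0.93, as 1 of 8 other inhibitors and activators. It measured 39.97, 44.7 and 27.98 across MSC1 to MSC3 and 22.2, 19.9 and 15.1 across TAC1 to TAC3, and its groups did not overlap. Reck, a membrane-anchored MMP inhibitor, was 34.5 to 36.2 in MSC and 33.8 to 47.5 in TAC (log2 fold change 0.16, limma adjusted p 0.882). Among 8 tested ADAMTS substrates, Acan, which encodes aggrecan, was at -1.80 and the link protein gene Hapln1 at 1.64. Acan measured 28.9, 36.8 and 9.55 across MSC1 to MSC3 and 5.80, 6.33 and 4.68 across TAC1 to TAC3, and Hapln1 measured 12.3, 12.8 and 16.3 across MSC1 to MSC3 and 53.7, 49.8 and 34.0 across TAC1 to TAC3. Neither pair of groups overlapped.

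Markers of other cells differed between the groups as well. The summed value of 8 smooth muscle and pericyte markers was 840 to 1500 in MSC and 96.5 to 131 in TAC. All 8 were higher in every MSC library (12.2% of all genes). In limma 7 had an unadjusted p under 0.05 (6.43% of all genes) and 5 an adjusted one (0.383% of all genes). The endothelial sum was 277 to 295 in MSC and 104 to 118 in TAC, with 4 of 8 genes at an unadjusted p under 0.05, all higher in MSC (6.43% of all genes). Macrophage markers summed to 79.0 to 194 in MSC and 44.3 to 130 in TAC. The smooth muscle and endothelial sums were higher in every MSC library, as were Timp3, Timp2, Mmp9, Adamts5, Adamts14, Adamts15 and Adamtsl4, the macrophage sums overlapped between the groups, and the part of these cells in those values was not tested. Neutrophil markers, which matter for Mmp8, Mmp9 and Mmp25, summed to at most 4.24 in MSC and 4.40 in TAC. All 6 were listed at 0 in MSC replicate 3, a library with 43.1% of all genes at 0. Osteoclast markers, which also bear on Mmp9, summed to 2.81 to 13.4 in MSC, highest in MSC replicate 3, and to 2.54 to 4.22 in TAC. The part of neutrophils and osteoclasts in the Mmp9 value, which was also highest in MSC replicate 3, was not tested. The sums of skeletal muscle markers were 1.73 to 7.01 in MSC and 1.49 to 2.98 in TAC.

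Proliferation markers summed to 128 to 216 in MSC and 319 to 992 in TAC. Here 5 of 6 genes had an unadjusted p under 0.05, all higher in TAC (5.42% of all genes), and Cdk1 passed the adjusted threshold (0.039% of all genes). Odontoblast markers summed to 921 to 5316 in MSC and 4716 to 5165 in TAC. Dspp, at 4909, 4763 and 476 across MSC1 to MSC3, made up most of the sum in MSC replicates 1 and 2. Within MSC, Sp7 and Bglap were highest in replicate 3 and the other genes of the list lowest. Of 8 tested, Smpd3 alone had an unadjusted p under 0.05, higher in TAC (5.42% of all genes). Of 7 tested dental follicle and periodontal markers, 6 had lower fitted values in TAC, and Fmod and Pthlh had an unadjusted p under 0.05, both higher in MSC (6.43% of all genes). Their sum was 176 to 238 in MSC and 152 to 621 in TAC, where Bglap2 held 484 of the 621 in TAC replicate 3. The 11 dental mesenchyme markers were all listed and summed to 1373 to 1621 in MSC and 1114 to 1151 in TAC. At an unadjusted p under 0.05 in limma, 3 were higher in MSC (6.43% of all genes) and Msx2 in TAC (5.42% of all genes). Msx2 measured 43.6, 44.3 and 26.9 across MSC1 to MSC3 and 108.9, 107 and 104 across TAC1 to TAC3. The groups did not overlap in 4 markers higher in MSC (12.2% of all genes) and in 2 higher in TAC, Msx1 and Msx2 (12.3% of all genes). Barx1 was at 0 in MSC replicate 3. The odontoblast genes Dmp1, Ibsp and Ifitm5 and the epithelial genes Epcam and Cdh1 were also at 0 there. The part of these lists in the values of Adamts18, Adamts19 and Mmp2 was not tested.

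**Figure D5:**
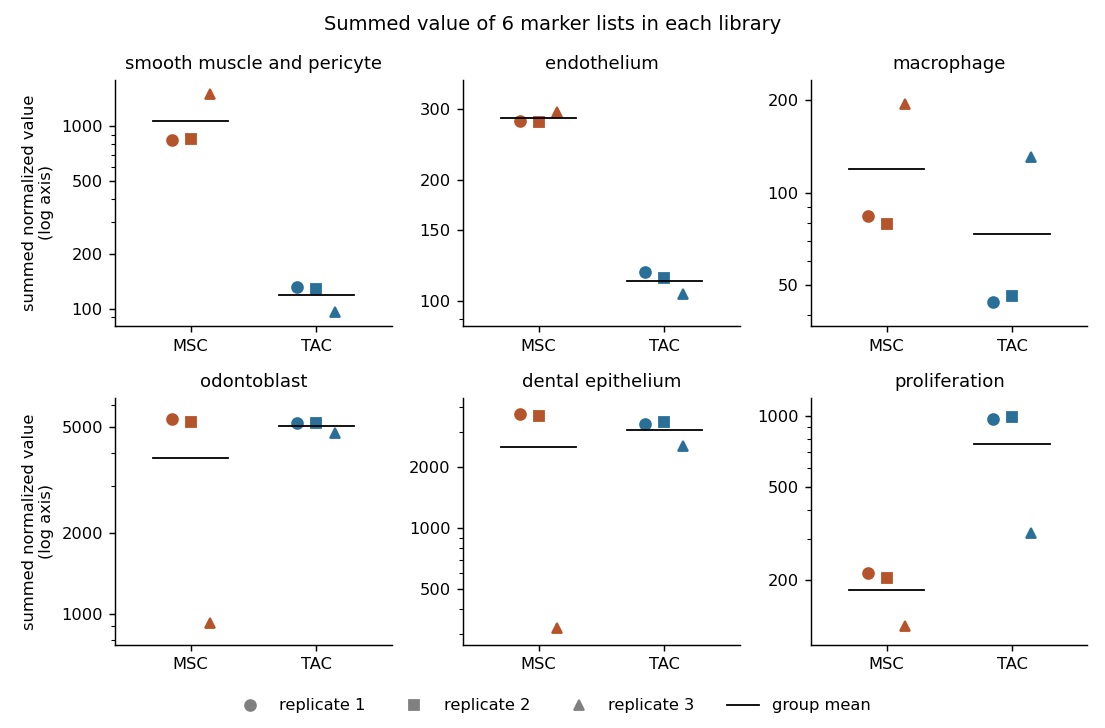
Summed normalized value (log axis) of 6 marker lists in each library, with MSC at the left and TAC at the right, a shape for each replicate number and a line at the group mean. Smooth muscle and pericyte markers (840 to 1500 against 96.5 to 131) and endothelial markers (277 to 295 against 104 to 118) are apart with MSC above. Proliferation markers are apart with TAC above. The sums of the odontoblast and dental epithelium lists are lowest in MSC replicate 3. Single genes of these lists, Sp7, Bglap, Krt5, Krt14, Amtn and Odam, are highest of the MSC libraries there.

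Adamts8, Adamts13, Adamts16, Mmp8, Mmp21, Mmp25 and Timp4 were the 7 members below the mean for testing. Mmp21 was at most 0.782 and Mmp25, a membrane-type MMP of neutrophils, at most 0.657. Apart from Adamts8, each had no read in MSC replicate 3. Mmp10, Mmp1b, Mmp27, Mmp3 and Mmp7 are not analysed here.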

How the data were processed

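RNA from laser-captured cells of 3 MSC and 3 TAC samples was sequenced. By the methods, the authors trimmed the reads and aligned them to mm10 with TopHat, and the submitters' processing notes name CASAVA 1.8.2, TopHat2 2.0.8 and Partek. The methods speak of RPKM. The deposited values are instead a signal that the authors made as a read number plus 1 divided by a size factor per library, since each library's lowest value is shared by genes of any length. The read counter and whether it used strand are not given in the sources used here. Estimated reads were the value over that lowest value, minus 1. Of values under 10 estimated reads, 65.6% to 73.9% per library were whole within 0.02, so no count model was used. The planned test was for values normalized by the authors, and it was kept for this unit.

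In R 4.3.3, limma 3.58.1 was fitted with its variance trend to log2(value + 1) of the 15391 genes whose 6 values averaged 1 or more, TAC minus MSC, two-sided, with Benjamini-Hochberg adjustment over all genes tested and 0.05 as the threshold. The unadjusted threshold was counted because the study used it. Adding 1 shrinks differences of genes with low values. The members and lists were chosen with earlier results of these data known. Values in all 6 samples are given for each Timp gene and for tested members with an unadjusted or adjusted p under 0.05, groups that do not overlap with a log2 fold change of at least 1, a mean of at least 50, or opposite log2 fold changes of at least 1 in replicates 1 and 2 and in replicate 3, and up to 4 partners per list at an unadjusted p under 0.05, largest change first. Alternatives were other pseudocounts, filters, scalings and variance models, the replicate block, library set as a batch term, replicates 1 and 2 only, and each sample left out. Averaging replicates 1 and 2 was added after seeing the data. The fit was tested on simulated data.

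Pairing by replicate number was examined by correlating deviations from the group means across genes. Same-numbered samples gave 0.477, 0.465 and 0.517, while MSC1 and TAC2 correlated at 0.462 and MSC2 and TAC1 at 0.480, so the shared deviation was that of replicate 3 against the others. The methods speak of 3 pairs of samples in sequencing, without saying which libraries form a pair. The pairing by number therefore rests on the label numbers alone. Beyond setting replicate 3 apart, the correlations could not decide it, since MSC2 correlated at 0.480 with TAC1 and at 0.465 with TAC2. Coordinates are 1-based on mm10. Exon lengths came from GENCODE release M21 and start regions from RefSeq.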

Additional observations from a re-analysis of the deposited data

How the results depend on the processing

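Of 419 recomputed log2 fold changes of 25 tested members, 15 named by the rule and 10 singled out later, 403 kept their direction. The exceptions with replicates 1 and 2 only were Timp1 (-0.37), Mmp15 (-0.84), Mmp20 (-0.079), Mmp23 (-0.55) and Adamts17 (-0.12). Without MSC replicate 3 they were Mmp14 (-0.12), Mmp13 (-0.66), Mmp15 (-0.80), Mmp20 (-0.11) and Adamts17 (-0.20). The rest were Mmp13 without TAC1 (-0.074), Mmp15 with quantile normalization (-0.058), and Adamts10, which was 0.040 with replicates 1 and 2 averaged, 0.11 without MSC3, 0.13 without TAC1 and 0.12 without TAC2. With a sample left out Adamts10 ran from -0.43 to 0.13, Mmp14 from -0.12 to 0.38, Mmp13 from -0.66 to 1.21, Mmp15 from -0.80 to 0.84, Mmp20 from -0.11 to 0.80 and Adamts17 from -0.20 to 2.01. The number of members with an adjusted p under 0.05, 1 as reported, was 0 with a pseudocount of 0.25, median-ratio scaling, no variance trend or replicates 1 and 2 averaged, 2 with a pseudocount of 5 (0.507% of all genes) or quantile normalization (0.741% of all genes), 9 with library set as a batch term (11.8% of all genes), 24 with replicates 1 and 2 only (44.2% of all genes), and 0 to 2 when a sample was left out (0% to 1.9% of all genes). At an unadjusted p under 0.05 it was 9 as reported, 14 with the replicate block, 17 with the batch term (29.6% of all genes), 25 with replicates 1 and 2 only (51.9% of all genes), 4 with these averaged, and 6 to 18 when a sample was left out (6.68% to 20.2% of all genes). For the partners, 0 adjusted became 2 with the replicate block, 14 with the batch term, 32 with replicates 1 and 2 only and 0 to 4 when a sample was left out. The unadjusted count of 10 became 22, 26 and 33 in these 3 fits (20.4%, 29.6% and 51.9% of all genes) and 7 to 15 when a sample was left out. With replicates 1 and 2 averaged, 0 partners were adjusted calls and 8 unadjusted ones (0.065% and 3.96% of all genes). The replicate block changed the adjusted call of Timp3 and Adamts19 and of no other of the 25 members. The fit on replicates 1 and 2 only has the small spread between these close libraries as its error. The members' median of -0.11 was 0.17 with a minimum mean of 5, -0.65 without MSC replicate 3 and 0.033 with replicates 1 and 2 averaged, and the median of all genes was -0.13 to 0.14 when a sample was left out. With 3 libraries per group and replicate 3 apart from the others, low members listed at 0 in MSC replicate 3 cannot be told from members not sampled there.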
